A study of Drosophila melanogaster with 12 samples.

Results

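The genes described here are the translation initiation factors and the aminoacyl-tRNA synthetases of Drosophila melanogaster, as whole adult females expressed them when virgin, after 1 mating and after 2 matings. They were taken by symbol: names that start with eIF, and names made of an amino acid's abbreviation and RS, with the suffix -m for the enzymes of mitochondria. Of 11982 genes with a single symbol on the array, 72 met this rule: 40 initiation factors, 18 cytosolic synthetases and 14 mitochondrial synthetases. A gene with several probe sets is shown by the probe set with the highest mean over the 12 arrays, which concerned 3 of the 72 genes (eIF4B, eIF4EHP and TrpRS). AlaRS-m, AspRS, eIF1A, eIF2alpha, eIF2gamma, eIF4H1 and MetRS carry names that meet the rule but had no listed probe set with a single symbol, and they were not analysed here. The probe sets of eIF2Bdelta, eIF3b, eIF4A, eIF4E1, eIF5, IleRS, ThrRS and ValRS bear a suffix used for probes that can match transcripts of other genes.

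Initiation factors bring the ribosome to the start codon of an mRNA. The eIF4 proteins bind the cap and unwind the leader, eIF2 carries the initiator tRNA and is recharged with GTP by eIF2B, eIF3 holds these parts together on the small subunit, and eIF5B joins the large subunit. Each synthetase loads a tRNA with its amino acid, and in most cases separate nuclear genes encode the enzyme of the cytosol and the enzyme imported into mitochondria, which translate only a few proteins of the respiratory chain. The ovary of an egg-laying fly is a major site of protein synthesis, and mating raises egg production.

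All females came from LHM, a large outbred wild-type laboratory population, and were collected as virgins on day 9 after egg laying and housed singly, with 0.375 mg of live yeast each from day 12. Virgins were kept without males, double mated females were paired with a male on day 12 and again on day 13, and single mated females spent day 12 without males, so that their mating is taken to be that of day 13. The males were first-generation offspring of a cross between inbred lines derived from LHM, and the females without males received the same brief anesthesia. Mated females were frozen 6 hours after mating, and each of the 4 arrays of a group held RNA of 8 pooled whole females from an extraction of its own. Single and double mated females therefore differed in the number of matings and also in the time since the first one.

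Values are log2 array signals, which were compared between groups for each gene and not between genes. Medians of the 12 arrays lay between 5.97 and 6.07. Double mated replicate 4 stood apart: the SD of its difference from the mean of the rest of its group was 0.245 over all probe sets, against 0.132 to 0.185 for the other arrays. Of 18769 probe sets tested with limma at an adjusted p under 0.05, 1927 (10.3%) were higher and 2667 (14.2%) lower in mated than in virgin females, where mated means the average of both mated groups. This split depended on the scaling, with 2211 higher and 1959 lower after cyclic loess and 1429 higher and 3996 lower after centring each array on its median. Whole bodies were assayed, so fewer cells of a type and less RNA per cell cannot be told apart. The 9 testis markers averaged 4.85 to 5.03 and the 6 male accessory gland markers 3.94 to 4.12 on the arrays. In any comparison 0 of either list were called. All 12 arrays are labelled female, so these values have no male level beside them and cannot settle the labelled sex. At an unadjusted p under 0.05, limma also gave 0 of either list for mated against virgin. It gave 2 testis markers for double against single mated and 1 accessory gland marker for single mated against virgin. The testis markers were not uniformly low, with mean levels from 3.32 for dj to 9.45 for twe.

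Between mated and virgin females the calls of the 3 classes went in different directions. Of the 14 mitochondrial synthetases, 9 fell and 0 rose (64.3% lower, against 14.2% of all probe sets), with a median change of -0.21 on the log2 scale and 14 of 14 estimates below 0. Of the 18 cytosolic synthetases, 4 rose and 0 fell (22.2% higher, against 10.3%), with a median of 0.09 and 15 of 18 estimates above 0. Of the 40 initiation factors, 4 rose and 3 fell (10% higher and 7.5% lower, against 10.3% and 14.2%), with a median of 0.02, where the median of all probe sets was 0.00. The initiation factors depended on the scaling, with 9 higher and 2 lower after cyclic loess and 4 higher, 6 lower and a median of -0.04 after centring each array on its median. The cytosolic enzymes depended on it too, with 10 higher after cyclic loess and 2 after centring, 0 lower in both, and a median between 0.03 and 0.17 over all alternatives. Of the mitochondrial enzymes 6 were lower after cyclic loess and 11 after centring, with a median between -0.28 and -0.15 over all alternatives, each array left out in turn included. These changes were small: the largest fall among the 72 genes was to 0.733 of the virgin level and the largest rise was 1.34-fold.

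**Figure D1:**
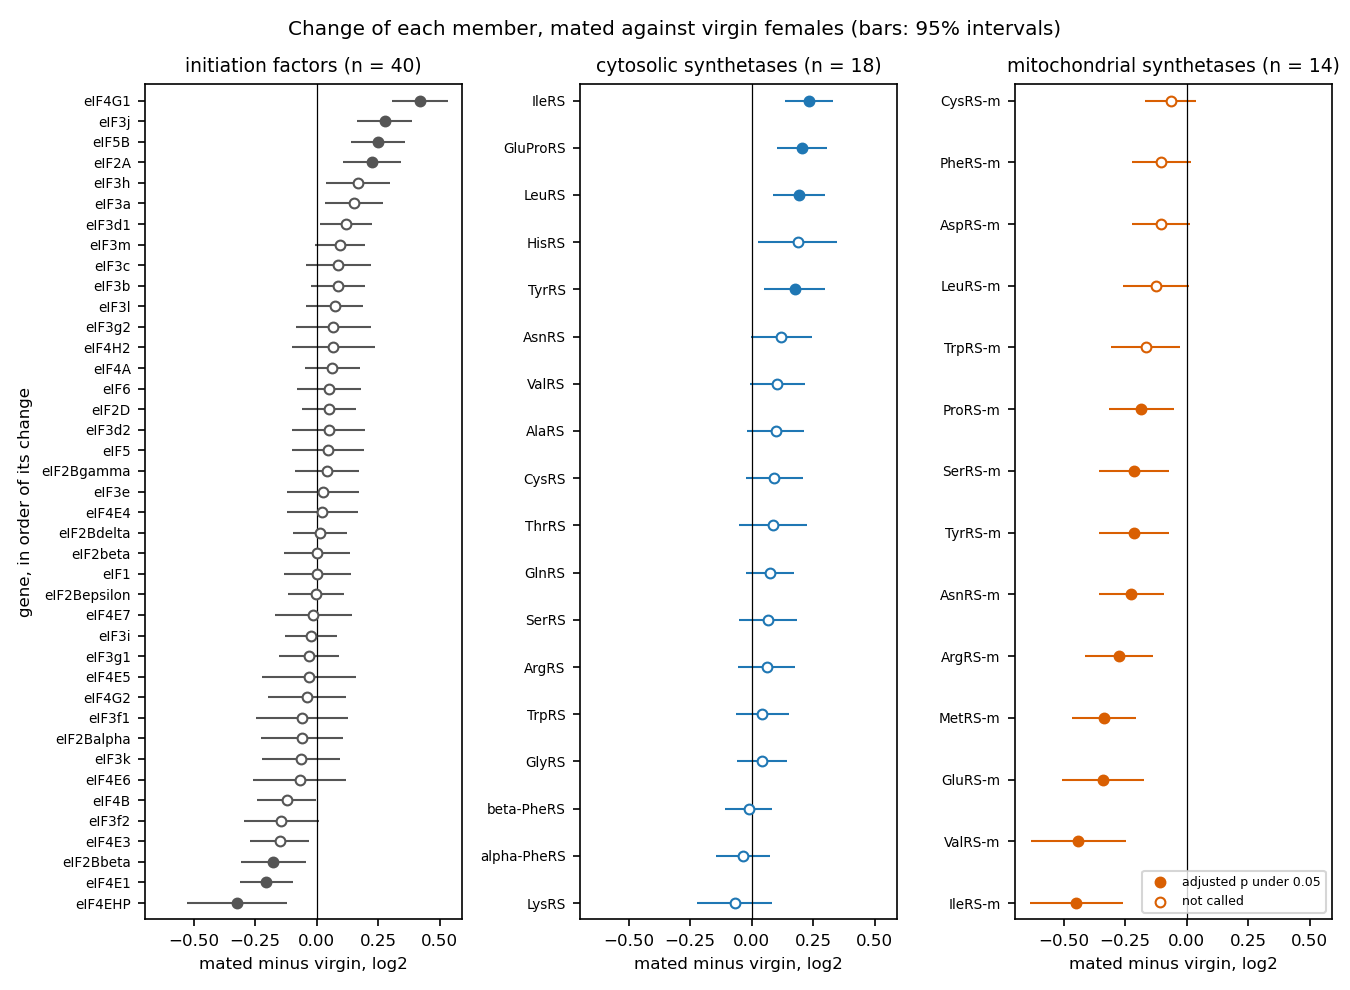
Change of each of the 72 genes between mated and virgin females on the log2 scale (x axis) for initiation factors, cytosolic synthetases and mitochondrial synthetases, with 95% intervals from limma as bars, filled points for an adjusted p under 0.05 and open points for genes not called. All 14 mitochondrial enzymes lie left of 0, and 15 of the 18 cytosolic enzymes lie right of it.

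The share of calls differed with the signal of the probe sets. Among the 2961 probe sets with a mean level between 7.72 and 9.51, the range of the mitochondrial synthetases, 33.0% were lower and 19.7% higher in mated females, with a median of -0.09. Among the 3541 within the range of the cytosolic synthetases (9.49 to 11.4), 32.1% were lower and 12.8% higher, with a median of -0.09. Thus the cytosolic enzymes, with 0 of 18 lower, and the mitochondrial enzymes, with 9 of 14 lower, lay on either side of probe sets of like signal. Of the 31 initiation factors with a mean level of 6 or more, 9.68% were lower and 12.9% higher, with a median of 0.04. The 4891 probe sets in their range (9.26 to 13.8) gave 31.0% lower and 13.7% higher, with a median of -0.08. These shares are a description, and no test was made over a class.

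Among mitochondrial synthetases, the isoleucine, valine, glutamate and methionine enzymes had the largest falls. IleRS-m, which charges mitochondrial tRNA with isoleucine, read 8.91, 8.91, 9.09 and 9.16 in virgins, 8.91, 8.69, 8.75 and 8.52 in single mated and 8.39, 8.27, 8.35 and 8.70 in double mated females. All 8 mated arrays lay below all 4 virgin arrays, the closest being single mated replicate 1 at 8.907 against virgin replicate 1 at 8.911. The mated level, as a ratio to the virgin level as for the other genes, was 0.733-fold (95% interval 0.643 to 0.835, adjusted p = 0.00188). ValRS-m, the valine enzyme, read 8.86, 8.89, 8.93 and 8.94 in virgins, 8.75, 8.63, 8.64 and 8.31 in single mated and 8.40, 8.20, 8.16 and 8.62 in double mated females. Its mated arrays were again all below the virgin arrays, at 0.737-fold (95% interval 0.644 to 0.843, adjusted p = 0.00249). Within the mated females, double mated replicate 4 was the highest array of its group for both genes, and single mated replicate 4 was the lowest of its group.

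MetRS-m, the methionine enzyme, read 7.95, 7.96, 8.04 and 7.84 in virgins, 7.81, 7.70, 7.73 and 7.62 in single mated and 7.50, 7.39, 7.48 and 7.67 in double mated females. No mated array reached a virgin array, and the mated level was 0.793-fold (95% interval 0.725 to 0.868, adjusted p = 0.00108). GluRS-m, the glutamate enzyme, read 8.05, 8.12, 8.29 and 8.13 in virgins, 8.07, 8.01, 7.89 and 7.64 in single mated and 7.71, 7.71, 7.58 and 7.80 in double mated females, so that single mated replicate 1 lay above virgin replicate 1 while the double mated arrays lay below every virgin array. Its mated level was 0.79-fold (95% interval 0.705 to 0.886, adjusted p = 0.00479). For ArgRS-m, the arginine enzyme, the arrays read 8.76, 8.78, 8.95 and 8.95 in virgins, 8.71, 8.69, 8.66 and 8.56 in single mated and 8.51, 8.43, 8.45 and 8.70 in double mated females, with no overlap of mated and virgin arrays and a mated level of 0.827-fold (95% interval 0.752 to 0.91, adjusted p = 0.00584). Calls of these 5 genes held under each of 23 alternatives.

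The remaining 4 called mitochondrial enzymes changed less. SerRS-m, the serine enzyme, ranged from 9.52 to 9.69 in virgins, from 9.34 to 9.52 in single mated and from 9.13 to 9.46 in double mated females. Mated and virgin arrays of SerRS-m did not overlap, although single mated replicate 1, at 9.518, was all but level with the lowest virgin array, and the mated level was 0.862-fold (95% interval 0.781 to 0.952, adjusted p = 0.0291). AsnRS-m, for asparagine, ranged from 8.03 to 8.10 in virgins, from 7.73 to 8.06 in single mated and from 7.68 to 7.87 in double mated females, where single mated replicate 1 alone reached the virgin range, and stood at 0.856-fold (95% interval 0.781 to 0.938, adjusted p = 0.0154). TyrRS-m, for tyrosine, ranged from 8.65 to 8.87, from 8.45 to 8.75 and from 8.32 to 8.50 in the same order, at 0.862-fold (95% interval 0.781 to 0.951, adjusted p = 0.0277). Single mated replicates 1 and 2 lay inside the virgin range of TyrRS-m and no double mated array did. ProRS-m, for proline, stood at 0.88-fold (95% interval 0.803 to 0.964, adjusted p = 0.0412). Counting all genes, 9.66% of probe sets had all 8 mated arrays below all 4 virgin arrays. Of the 2961 probe sets within the signal range of the mitochondrial synthetases, 676 did. Of the 14 mitochondrial synthetases 5 did: MetRS-m, IleRS-m, ValRS-m, ArgRS-m and SerRS-m.

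Not called were the enzymes for tryptophan (TrpRS-m, -0.17 on the log2 scale, adjusted p = 0.081), leucine (LeuRS-m, -0.12, adjusted p = 0.185), aspartate (AspRS-m, -0.10, adjusted p = 0.203), phenylalanine (PheRS-m, -0.10, adjusted p = 0.216) and cysteine (CysRS-m, -0.06, adjusted p = 0.384). Their estimates were all below 0, but the 95% intervals of 4 of them reached above 0 and that of TrpRS-m did not. The count of 9 lower fell to 5 without virgin replicate 3, the array with the highest class median, to 5 when each array's trend on gene span was removed, and rose to 11 without double mated replicate 4. In the same order, lower calls over all probe sets went from 2667 to 1956, 2316 and 3149. The call of ProRS-m was lost under 13 of 23 alternatives, among them the removal of virgin replicate 2, 3 or 4, single mated replicate 2, 3 or 4 or double mated replicate 1 or 2. That of SerRS-m was lost under 10 (as without virgin replicate 2, 3 or 4, single mated replicate 4 or double mated replicate 2 or 3), that of TyrRS-m under 6 (as without virgin replicate 3 or 4 or double mated replicate 2) and that of AsnRS-m under 3 (as without virgin replicate 3).

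**Figure D2:**
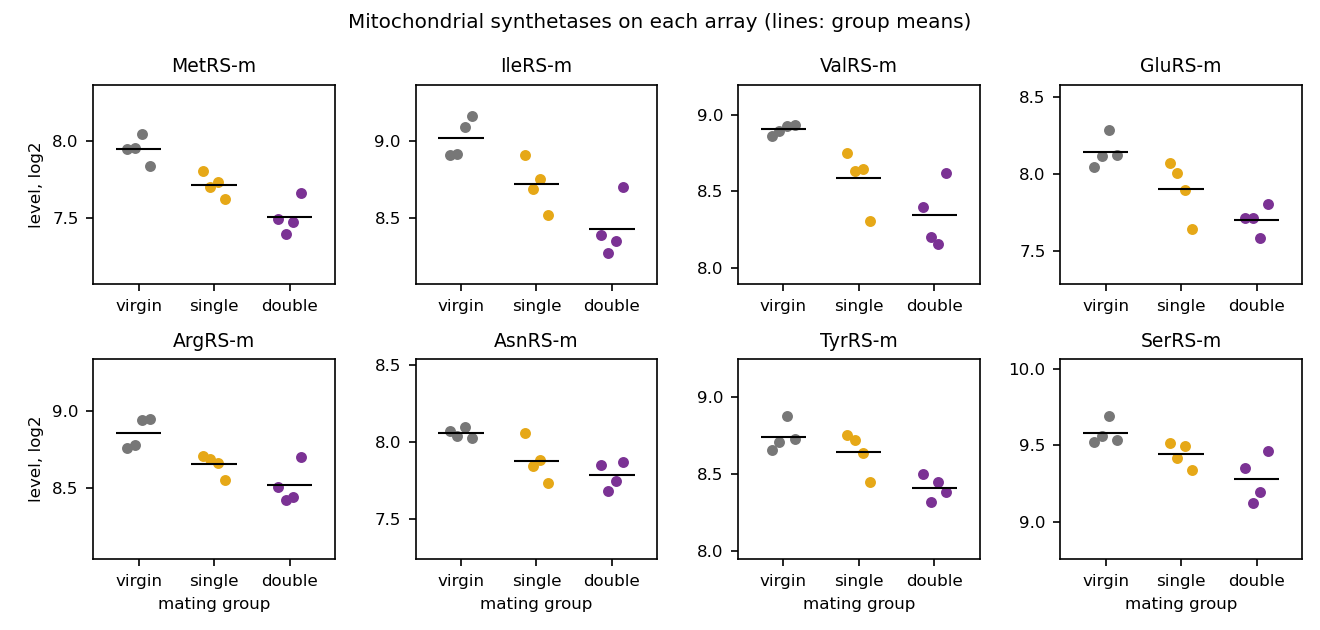
Log2 signal (y axis) of mitochondrial synthetases on each of the 12 arrays, by group (x axis), with 1 point per array and a line at the group mean. IleRS-m, ValRS-m and MetRS-m have every mated array below every virgin array, and double mated replicate 4 lies at the top of its group for each of these genes.

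Other components of mitochondrial translation were read from a list of factors, of which 8 were measured. Its 3 calls were all lower in mated females: mIF3, an initiation factor, changed by -0.38 on the log2 scale (adjusted p = 0.000535), mRF1, a release factor, by -0.22 (adjusted p = 0.0432) and mRRF1, a ribosome recycling factor, by -0.20 (adjusted p = 0.0175). These calls were 37.5% of the measured factors. Of all probe sets 14.2% were lower, and of those within the signal range of the mitochondrial synthetases 33.0% were. The elongation factors mEFTu1 and mEFTu2 had estimates of 0.05 and 0.06 and were not called. GatA and GatB, subunits of the amidotransferase that completes glutaminyl-tRNA in mitochondria, fell by 0.18 and 0.35, and Slimp, a mitochondrial relative of SerRS-m without charging activity, fell by 0.21. These were 3 of the 6 measured partners of the synthetases (50% lower, against the same 14.2% and 33.0%). The measured scaffold proteins AIMP1, AIMP2 and AIMP3 of the cytosolic complex were not called.

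Of the cytosolic synthetases, the 4 called genes all rose, and the other 14 were not called. Several of them, the enzymes for arginine, glutamine, isoleucine, leucine and lysine and the fused glutamate and proline enzyme GluProRS, form a multienzyme complex in animal cells. MetRS and AspRS, also part of it, were not analysed. Of these 6 measured members, 3 rose (50%) and the median change was 0.13 on the log2 scale. Of the other 12 cytosolic enzymes, 1 rose (8.33%) and the median was 0.09. Of all probe sets 10.3% rose, and of those within the signal range of the cytosolic synthetases 12.8% did. The difference between the 6 and the 12 was not tested. IleRS read 11.31, 11.29, 11.25 and 11.27 in virgins, 11.48, 11.47, 11.53 and 11.43 in single mated and 11.48, 11.60, 11.56 and 11.57 in double mated females. Every mated array exceeded every virgin array, and the mated level was 1.18-fold (95% interval 1.10 to 1.26, adjusted p = 0.00162). GluProRS read 11.05, 11.10, 11.13 and 11.14 in virgins, 11.28, 11.25, 11.29 and 11.19 in single mated and 11.36, 11.34, 11.45 and 11.32 in double mated females. Its mated arrays were likewise all above the virgin arrays, at 1.15-fold (95% interval 1.07 to 1.24, adjusted p = 0.00516).

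LeuRS ranged from 10.70 to 10.80 in virgins, from 10.90 to 10.97 in single mated and from 10.85 to 11.04 in double mated females, also without overlap of mated and virgin arrays, and stood at 1.14-fold (95% interval 1.06 to 1.23, adjusted p = 0.0101). IleRS, GluProRS and LeuRS were the 3 of 18 cytosolic enzymes with all 8 mated arrays above all 4 virgin arrays. The same held for 5.51% of all probe sets and for 307 of the 3541 within the signal range of the cytosolic synthetases. TyrRS, at 1.13-fold (95% interval 1.03 to 1.23, adjusted p = 0.0424), ranged from 10.59 to 10.63 in virgins and from 10.73 to 10.79 in single mated females, and from 10.58 to 10.90 in double mated females, where replicate 4 was the lowest array of all. Its call was lost without any 1 of the other 11 arrays, and held without double mated replicate 4. The LysRS, alpha-PheRS and beta-PheRS estimates were below 0, at -0.07, -0.03 and -0.01 (adjusted p = 0.544, 0.703 and 0.882), and the remaining 11 uncalled enzymes had estimates from 0.04 for GlyRS to 0.19 for HisRS. With cyclic loess 18 of the 18 estimates were above 0, and with arrays centred on their median 12 were.

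Enzymes for the same amino acid in both compartments could be set side by side for 12 amino acids, in 13 pairs, since phenylalanine has 2 cytosolic subunits and GluProRS serves in 2 pairs. In each of the 13 pairs the change of the mitochondrial enzyme between mated and virgin females was below that of the cytosolic enzyme. The mitochondrial minus the cytosolic change ran from -0.07 (the alpha subunit for phenylalanine) to -0.68 (isoleucine) on the log2 scale, with a median of -0.33. The mitochondrial minus the cytosolic log2 value for isoleucine ran from -2.40 to -2.11 over the virgin arrays, from -2.91 to -2.57 over the single mated and from -3.32 to -2.87 over the double mated arrays. For valine the same difference ran from -1.35 to -1.28, from -1.80 to -1.54 and from -2.28 to -1.82. Virgin and mated arrays did not overlap for either amino acid. The difference between 2 probe sets has no meaning as a level, and its shift between groups is a description of the changes given above, with no test.

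**Figure D3:**
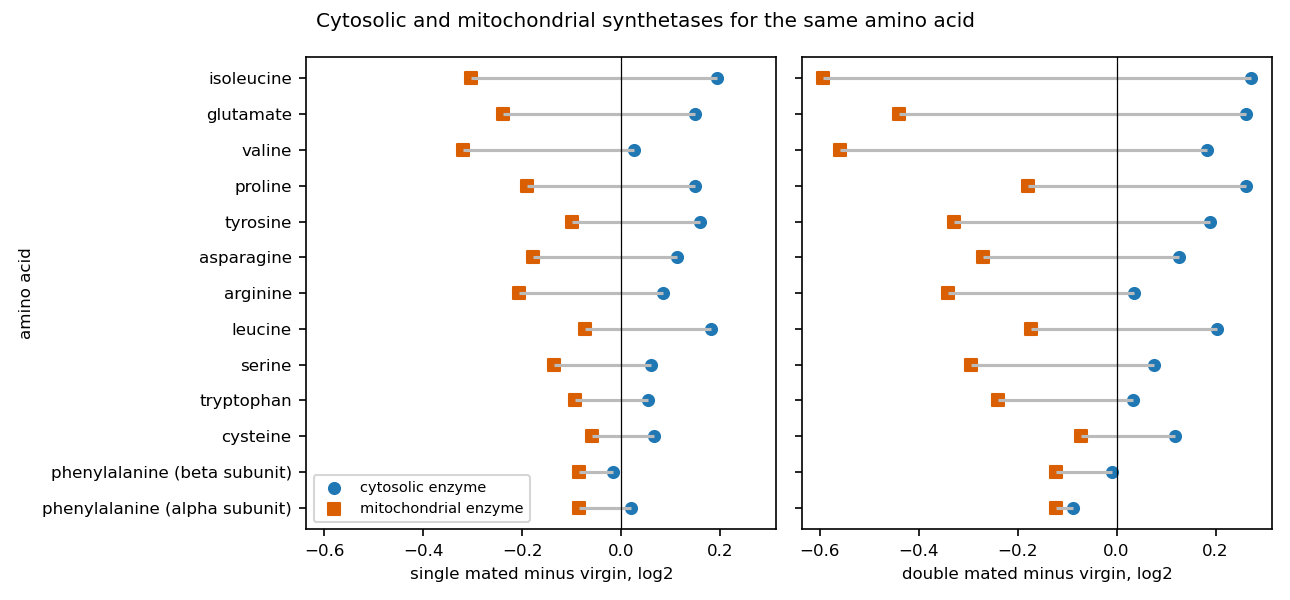
Change on the log2 scale (x axis) of the cytosolic (circles) and mitochondrial (squares) synthetase for each amino acid (y axis), for single mated (left) and double mated (right) against virgin females, joined by a line. The square lies left of the circle in all 13 pairs of both panels, which share the virgin arrays.

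Among initiation factors, the cap-binding group held both the largest rise and the largest fall. Of its 6 measured members, copies with a mean level under 6 left aside, 1 rose and 2 fell. This was 16.7% higher and 33.3% lower, against 10.3% and 14.2% of all probe sets. Probe sets in the signal range of the initiation factors with a mean level of 6 or more gave 13.7% and 31.0%. eIF4G1, the scaffold that joins the cap-binding protein, the helicase and the poly(A)-binding protein, read 11.48, 11.43, 11.33 and 11.38 in virgins, 11.70, 11.78, 11.78 and 11.77 in single mated and 11.83, 11.85, 12.03 and 11.84 in double mated females. All mated arrays lay above all virgin arrays, and all double mated above all single mated arrays, with a mated level of 1.34-fold (95% interval 1.24 to 1.45, adjusted p = 9.44e-05). eIF4E1, the main cap-binding protein, read 13.30, 13.32, 13.35 and 13.35 in virgins, 13.20, 13.24, 13.18 and 13.10 in single mated and 13.03, 13.04, 13.03 and 13.20 in double mated females. Here every mated array was below every virgin array, and the mated level was 0.867-fold (95% interval 0.805 to 0.934, adjusted p = 0.00764). eIF4EHP, which binds the cap without recruiting eIF4G and represses translation of particular mRNAs in the fly embryo, read 9.59, 9.61, 9.43 and 9.49 in virgins, 9.40, 9.44, 9.40 and 9.29 in single mated and 9.09, 9.18, 9.24 and 8.61 in double mated females. Single mated replicate 2 lay just above virgin replicate 3, double mated replicate 4 was far below the rest, and the mated level was 0.799-fold (95% interval 0.694 to 0.921, adjusted p = 0.0224). The call was lost without virgin replicate 1 or virgin replicate 2 and with the mean of its probe sets (-0.10 on the log2 scale), and a second eIF4EHP probe set with a mean level of 6.13 changed by 0.13 and was not called (adjusted p = 0.161).

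The helicase eIF4A (0.06, adjusted p = 0.445) and the second scaffold eIF4G2 (-0.04, adjusted p = 0.772), known for its role in male germ cells, were not called. eIF4B, which stimulates the helicase, depended on the probe set. The one with the highest mean read 12.07, 12.06, 12.08 and 12.10 in virgins, 12.14, 12.07, 12.04 and 12.08 in single mated and 11.71, 11.93, 11.95 and 11.72 in double mated females. Its double mated arrays were all below the other 8, at 0.841-fold (95% interval 0.764 to 0.926, adjusted p = 0.00917) of virgins and 0.838-fold (95% interval 0.761 to 0.923, adjusted p = 0.0344) of single mated females. Another eIF4B probe set, with a mean level of 10.1, rose by 0.33 in mated and by 0.39 in double mated females on the log2 scale (adjusted p = 0.00113 and 0.000726). The remaining ones, with means of 11.5 and 5.02, changed by 0.09 and -0.08 between mated and virgin females and were not called. No single direction can be given for eIF4B.

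eIF3, the largest initiation factor, had 13 measured subunits apart from second copies, and 1 of them rose and 0 fell between mated and virgin females, with a median change of 0.09. This was 7.69% of the subunits, where 10.3% of all probe sets rose. The subunit was eIF3j, a loosely attached part that helps the complex bind the small ribosomal subunit, and it read 11.47, 11.43, 11.43 and 11.28 in virgins, 11.58, 11.66, 11.58 and 11.74 in single mated and 11.72, 11.71, 11.76 and 11.68 in double mated females. No mated array overlapped the virgin arrays, and the mated level was 1.21-fold (95% interval 1.12 to 1.31, adjusted p = 0.00141). In double mated against virgin females 4 subunits rose, namely eIF3a, eIF3h, eIF3j and eIF3m, with a median over the 13 of 0.13. This was 30.8% of the subunits, where 12.3% of all probe sets rose. eIF3a, the scaffold subunit, read 11.66, 11.52, 11.46 and 11.53 in virgins, 11.48, 11.61, 11.66 and 11.51 in single mated and 11.86, 11.76, 11.79 and 11.87 in double mated females. Its double mated arrays lay above all others, at 1.21-fold (95% interval 1.10 to 1.33, adjusted p = 0.00405) of the virgin level, whereas the single mated arrays lay among the virgin ones. eIF3h ranged from 11.73 to 11.87, from 11.85 to 11.94 and from 11.88 to 12.16 in virgin, single and double mated females, at 1.18-fold (95% interval 1.06 to 1.31, adjusted p = 0.0194) after 2 matings, and eIF3m stood at 1.11-fold (95% interval 1.03 to 1.21, adjusted p = 0.044). The eIF3m call was lost under 14 of 24 alternatives and without any 1 array other than single or double mated replicate 1, and that of eIF3h was lost without virgin replicate 3 or 4 or without double mated replicate 2 or 3. Both were lost with arrays centred on their median, where 2 of the 4 calls, eIF3a and eIF3j, held.

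The factors that handle the initiator tRNA and the joining of subunits gave a mixed picture. eIF5B, the GTPase that joins the large ribosomal subunit, read 10.77, 10.71, 10.67 and 10.71 in virgins, 10.92, 10.90, 10.96 and 10.83 in single mated and 11.01, 11.07, 11.11 and 10.91 in double mated females. Each mated array was above each virgin array, at 1.19-fold (95% interval 1.10 to 1.28, adjusted p = 0.00241). eIF2A, a protein separate from eIF2 that can also bring initiator tRNA to the ribosome, read 12.05, 12.04, 11.94 and 11.92 in virgins, 11.98, 12.04, 12.17 and 12.16 in single mated and 12.34, 12.35, 12.41 and 12.25 in double mated females. Double mated arrays lay above all the others and single mated arrays overlapped the virgin ones, with a mated level of 1.17-fold (95% interval 1.08 to 1.27, adjusted p = 0.00716). eIF2Bbeta, a regulatory subunit of the exchange factor eIF2B, ranged from 10.06 to 10.16 in virgins, from 9.95 to 10.07 in single mated and from 9.71 to 10.05 in double mated females. It stood at 0.884-fold (95% interval 0.807 to 0.969, adjusted p = 0.0492), a call lost under 12 of 23 alternatives, among them the removal of any 1 virgin array, of single mated replicate 2, 3 or 4 or of double mated replicate 1. The other 4 eIF2B subunits had estimates from -0.06 (eIF2Balpha) to 0.04 (eIF2Bgamma) and were not called. eIF1, which guards the choice of start codon, eIF2beta, a subunit of eIF2, eIF5, which triggers GTP hydrolysis by eIF2, eIF6, which keeps the ribosomal subunits apart, and eIF2D were not called either, with estimates from 0.00 to 0.05.

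**Figure D4:**
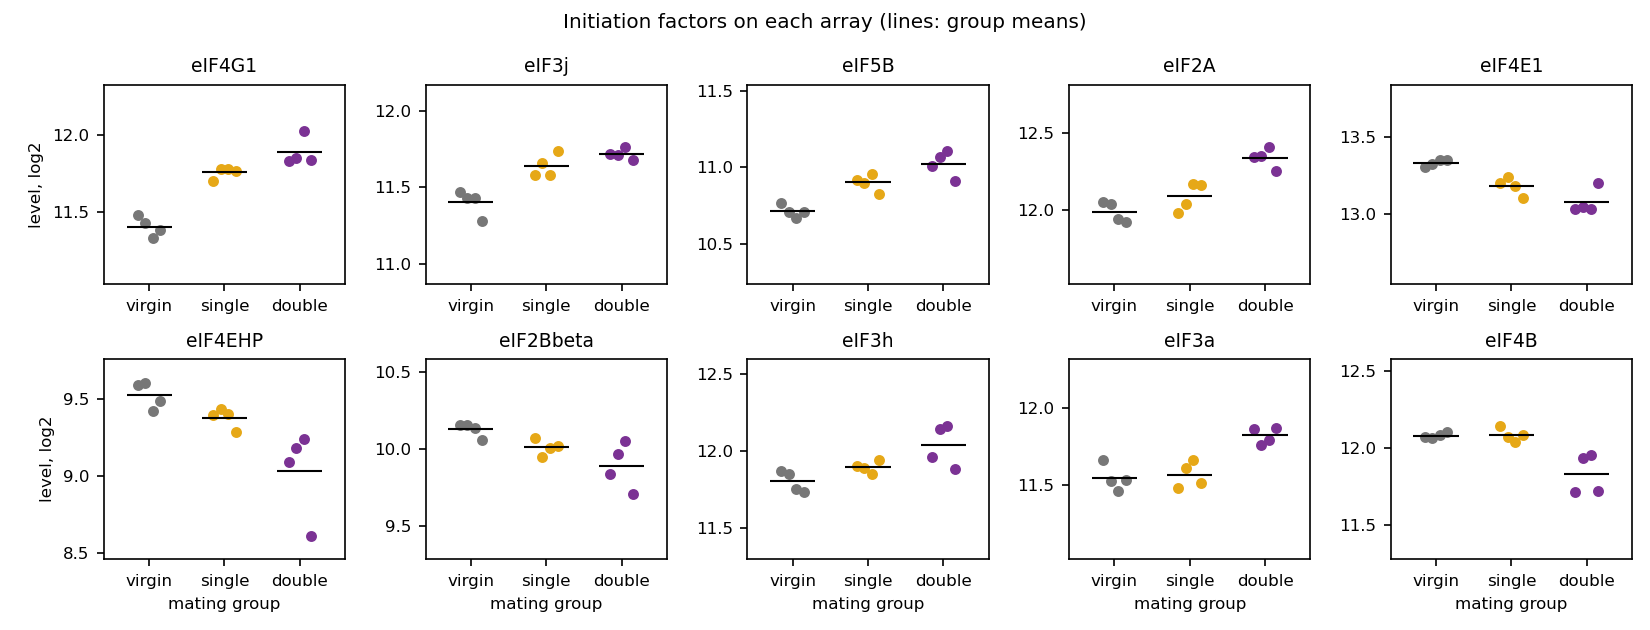
Log2 signal (y axis) of initiation factors on each of the 12 arrays by group (x axis), with 1 point per array and a line at the group mean. For eIF4G1, eIF3j and eIF5B the mated arrays lie above all virgin arrays, and for eIF4E1 below them.

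Counting all 40 initiation factors, 3 (eIF4G1, eIF3j and eIF5B) had every mated array above every virgin array and 1 (eIF4E1) had every mated array below, shares of 7.5% and 2.5% where all probe sets gave 5.51% and 9.66%. Of the 4891 probe sets in the signal range of the factors with a mean level of 6 or more, 455 lay wholly above and 1148 wholly below. The 9 genes with a mean level under 6, close to the median of all probe sets, were eIF3d2, eIF3f2, eIF3g2, eIF4E3, eIF4E4, eIF4E5, eIF4E6, eIF4E7 and eIF4H2. Their means ran from 3.70 to 5.50, and 0 of 9 were called for mated against virgin, with 1 at an unadjusted p under 0.05 by limma. After 2 matings eIF3f2 (-0.25, adjusted p = 0.0375) and eIF4E3 (-0.20, adjusted p = 0.0311) were lower than in virgins, and these calls were lost under 11 and 9 of 22 alternatives. For eIF3f2 the removal of virgin replicate 2, 3 or 4 or of any 1 double mated array was enough, and for eIF4E3 that of virgin replicate 1, 2 or 4 or of double mated replicate 1, 2 or 3. Without the 9, the 31 other initiation factors gave the same 4 higher and 3 lower, where 4891 probe sets in their range of signal were 13.7% higher and 31.0% lower.

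Against virgins, 1 mating gave few calls: 4.49% of all probe sets were higher and 5.17% lower. Of the initiation factors, 2 rose and 0 fell. They were eIF4G1, at 1.28-fold (95% interval 1.17 to 1.40, adjusted p = 0.00315), and eIF3j, at 1.18-fold (95% interval 1.08 to 1.29, adjusted p = 0.0234). Of the cytosolic synthetases 1 rose, IleRS, at 1.15-fold (95% interval 1.06 to 1.24, adjusted p = 0.0292), and 16 of 18 estimates were above 0 with a median of 0.07. Of the mitochondrial synthetases 0 of 14 were called by limma, while 7 had an unadjusted p under 0.05, all 14 estimates were below 0 and their median was -0.16. Of the 2961 probe sets within their signal range, 13.0% were called lower and 1401 had an unadjusted p under 0.05 by limma. In that range 1915 estimates were below 0 and the median was -0.09. The counts of calls in the 3 classes depended on single arrays. Without single mated replicate 1, the highest of its group for most mitochondrial enzymes, 5 mitochondrial synthetases were called lower, and without double mated replicate 4, which enters through the shared estimate of the spread, 4 were. Lower calls over all probe sets were 970 in the main fit, 1072 without single mated replicate 1 and 1576 without double mated replicate 4. The call of IleRS was lost without any 1 of the virgin arrays or of single mated replicates 2, 3 and 4, and 3 cytosolic enzymes were called without double mated replicate 4. That last removal took the higher calls over all probe sets from 843 to 1122. eIF3j lost its call without virgin replicates 3 or 4 or single mated replicates 2 or 4, and the call of eIF4G1 held without any 1 array.

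After 2 matings, 12.3% of all probe sets were higher and 15.7% lower than in virgins, from the same 4 virgin arrays. Of the mitochondrial synthetases 9 fell, 0 rose and the median was -0.28. IleRS-m stood at 0.663-fold (95% interval 0.57 to 0.771, adjusted p = 0.000545), ValRS-m at 0.678-fold (95% interval 0.581 to 0.792, adjusted p = 0.000999) and MetRS-m at 0.738-fold (95% interval 0.665 to 0.818, adjusted p = 0.000317). TrpRS-m joined the calls at 0.847-fold (95% interval 0.758 to 0.947, adjusted p = 0.0271), which was lost under 10 of 24 alternatives (as without virgin replicate 1, 3 or 4 or double mated replicate 1, 2 or 3), and ProRS-m was not called (-0.18, adjusted p = 0.0771). Of the cytosolic synthetases 4 rose, 0 fell and the median was 0.10: IleRS at 1.21-fold (95% interval 1.12 to 1.30, adjusted p = 0.00121), GluProRS at 1.20-fold (95% interval 1.11 to 1.30, adjusted p = 0.00218), LeuRS at 1.15-fold (95% interval 1.06 to 1.25, adjusted p = 0.0147) and ValRS at 1.14-fold (95% interval 1.04 to 1.24, adjusted p = 0.0364). ValRS ranged from 10.21 to 10.25 in virgins, from 10.11 to 10.35 in single mated and from 10.32 to 10.44 in double mated females, and its call was lost without any 1 virgin array or without double mated replicate 2, 3 or 4. Of the initiation factors 7 rose (eIF4G1, eIF2A, eIF5B, eIF3a, eIF3h, eIF3j and eIF3m) and 6 fell (eIF4EHP, eIF4E1, eIF4B, eIF2Bbeta, eIF3f2 and eIF4E3). The eIF4B count is that of its probe set with the highest mean, against another that rose. The eIF2Bbeta call was lost without virgin replicate 1, 2 or 3 or double mated replicate 1. eIF4EHP stood at 0.708-fold (95% interval 0.601 to 0.834, adjusted p = 0.00336) by the probe set used, and its change on the log2 scale was -0.50 by that probe set and -0.17 with the mean of its probe sets.

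Compared directly, double and single mated females differed at 3.55% (higher after 2 matings) and 1.74% (lower) of all probe sets. The counts were 2 higher and 1 lower among initiation factors and 0 of 18 and 0 of 14 among cytosolic and mitochondrial synthetases. eIF3a was higher after 2 matings, at 1.19-fold (95% interval 1.09 to 1.31, adjusted p = 0.0313) of the single mated level, and eIF2A too, at 1.19-fold (95% interval 1.08 to 1.30, adjusted p = 0.0338), while the fall of eIF4B is that of 1 probe set. Without single mated replicate 1 or 2 or double mated replicate 1, all 3 calls were lost. Those of eIF3a and eIF2A were also lost without double mated replicate 2 or 3, that of eIF3a without single mated replicate 4, and that of eIF4B without virgin replicate 1 or 2 or single mated replicate 3 or 4. For the synthetases limma gave an unadjusted p under 0.05 for 1 cytosolic and 5 mitochondrial enzymes, and 13 of 14 mitochondrial estimates were below 0, with a median of -0.14. Of all 18769 probe sets, 4055 had an unadjusted p under 0.05 by limma. Of their estimates 11095 were below 0, with a median of -0.03. The 2961 probe sets in the mitochondrial signal range gave 1060 and 1565, with a median of -0.02. The largest mitochondrial estimate was that of IleRS-m, -0.29 with a 95% interval from -0.51 to -0.07 on the log2 scale (adjusted p = 0.113). Without double mated replicate 4 the count of mitochondrial enzymes called lower was 4, without single mated replicate 4 it was 2, and with array weights it was 5. Lower calls over all probe sets numbered 326 in the main fit and 363 without single mated replicate 4. Without double mated replicate 4 they numbered 985, and with array weights 988.

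**Figure D5:**
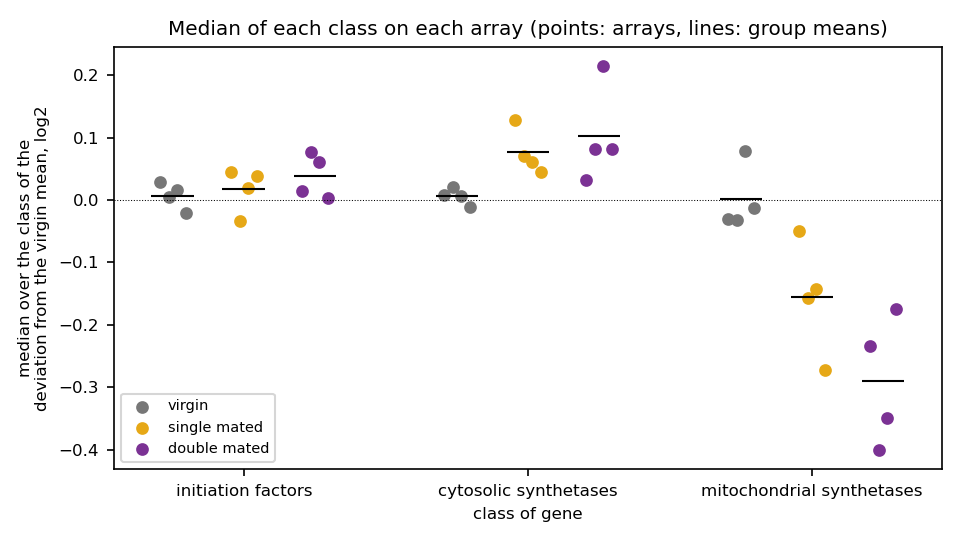
Median over the genes of each class of the deviation from the virgin mean (y axis, log2) on each array, by group (x axis), for initiation factors, cytosolic and mitochondrial synthetases. The mitochondrial medians run from -0.27 to -0.05 in single mated and from -0.40 to -0.17 in double mated females, and the cytosolic medians from 0.03 to 0.21 over the 8 mated arrays.

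Seen array by array, the median deviation of the mitochondrial synthetases from their virgin means was between -0.03 and 0.08 on virgin arrays, between -0.27 and -0.05 on single mated and between -0.40 and -0.17 on double mated arrays. That of the cytosolic synthetases was between -0.01 and 0.02, between 0.04 and 0.13, and between 0.03 and 0.21. That of the initiation factors stayed between -0.03 and 0.08 on all 12 arrays. Mated arrays were thus on opposite sides of all virgin arrays for the synthetase classes, and single and double mated arrays overlapped in both. The gaps were narrow. Cytosolic medians were 0.020 on virgin replicate 2 and 0.033 on double mated replicate 1. Mitochondrial medians were -0.032 on virgin replicate 2 and -0.049 on single mated replicate 1. The median over all probe sets lay between -0.03 and 0.02 on the 12 arrays. Whether the gaps hold under other scalings was not tested. Double mated replicate 4 had the smallest mitochondrial deviation of its group.

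Markers of ovarian and other cells moved between the same groups. Of 5 measured follicle cell markers 4 rose in mated females, with a median of 0.98, and their mean log2 level ran from 11.2 to 11.7 on virgin, from 11.6 to 12.2 on single mated and from 12.5 to 13.0 on double mated arrays. Of 8 germline markers 2 rose and 3 fell, with mean levels from 10.50 to 10.57, from 10.39 to 10.54 and from 10.34 to 10.65. Of 3 midgut markers 2 rose, of 3 muscle markers 1 rose, and of 5 fat body and yolk markers 2 rose and 1 fell, while 0 of 5 hemocyte and 0 of 3 neuron markers were called, with 2 and 0 at an unadjusted p under 0.05 by limma. Of all probe sets 10.3% rose and 14.2% fell, against 80% and 0% of the follicle cell and 25% and 37.5% of the germline markers. After 2 matings 1 hemocyte marker, NimC1, was higher than in virgins (0.24, adjusted p = 0.0442 by limma). None of the markers is a member of the classes above, and the part of these cells in the changes of the synthetases and initiation factors was not tested.

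Regulators of initiation changed in both directions. Of 23 listed genes 14 were measured, and 3 rose and 3 fell in mated females (21.4% each way). Of all probe sets 10.3% rose and 14.2% fell. Those in the signal range of the initiation factors with a mean level of 6 or more gave 13.7% and 31.0%. S6k, the kinase that phosphorylates a ribosomal protein downstream of TOR, rose by 0.61 on the log2 scale (adjusted p = 1.98e-05), pAbp, the poly(A)-binding protein that contacts eIF4G, by 0.44 (adjusted p = 0.00037) and crc, the fly ATF4, by 0.30 (adjusted p = 0.000701). The genes that fell were raptor, a subunit of TOR complex 1, by 0.35 (adjusted p = 0.000965), Pdcd4, whose mammalian counterpart inhibits the helicase eIF4A, by 0.26 (adjusted p = 0.00752), and DENR, a factor for reinitiation, by 0.23 (adjusted p = 0.039). After 2 matings mxt was also higher, and 4E-T and Paip2, which bind eIF4E and the poly(A)-binding protein, were lower. Of 7 measured elongation and release factors 1 was called (14.3% higher, against the same 10.3%). It was eEF1alpha2, which delivers charged tRNA to the ribosome, with a rise of 0.51 (adjusted p = 0.000102). The probe sets of eEF1alpha2, pAbp, mxt and 4E-T bear the suffix used for probes that can match transcripts of other genes.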

How the data were processed

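RNA of whole females was measured on 12 Affymetrix Drosophila Genome 2.0 arrays, 4 pools of 8 flies in each of 3 groups. The deposited table holds log2 values that RMA made with the affy package, per the submitters' processing notes; the versions, and how the probes were matched to the genome, are not given in the sources used here. RMA quantile-normalizes the arrays, so a change is relative to the rest of the array. There is no read depth, and precision is set by how many arrays a group has.

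Of 18952 probe sets, 183 Affymetrix controls were left out and 18769 were tested without a filter, in 1 fit to the 12 arrays with limma 3.58.1 (lmFit and eBayes) in R 4.3.3. The contrasts were mated (mean of both mated groups), single mated and double mated against virgin, and double against single mated, with Benjamini-Hochberg adjustment over all 18769 probe sets of a contrast and calls at an adjusted p under 0.05. Fold changes are antilogs of the fitted log2 differences, with 95% intervals from the moderated t distribution. The 3 contrasts with virgins share the same 4 virgin arrays. The fit was tested on simulated data.

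Genes were named through the platform annotation, and the 72 genes matched RefSeq by gene ID in 72 of 72 cases. Any of them may be named. Arrays are listed one by one, or as a range per group, for at most 8 genes of a class, in the order of p for mated against virgin among those called in any contrast, and for those called between double and single mated females. The genes, the lists of related genes and the markers were chosen with earlier results of these data known. P-values measure the spread between pools. The alternatives were a replicate block, 3 other scalings, 2 filters on low signal, weighting of arrays, another variance model, other ways to choose a gene's probe set, fits of fewer groups, a stricter threshold, a narrower name rule and the removal of each array in turn. Sequences and coordinates were not used here.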

Additional observations from a re-analysis of the deposited data

Results flagged for a closer look

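For each gene with values listed by array, and for each class median, the highest or lowest of a group's 4 arrays was set against the gap to its nearest neighbour. Of 78 groups, 5 had an array standing apart by Dixon's criterion at the 95% level, and chance gives about 1 in 20. eIF4G1 read 12.03 on double mated replicate 3, against 11.83 to 11.85 on the other arrays of the group. eIF4E1 read 13.20 on double mated replicate 4, against 13.03 to 13.04. For eIF2Bbeta, virgin replicate 4 was low at 10.06, against 10.14 to 10.16. For ValRS, virgin replicate 3 was high at 10.25, against 10.21 to 10.22, and double mated replicate 1 was low at 10.32, against 10.43 to 10.44.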

How the results depend on the processing

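Of 52 calls of single genes, each recomputed under 22 to 24 alternatives (1224 combinations), 1038 were kept, 183 were lost and 3 changed sign. Those 3 concern eIF4B: double mated against virgin was 0.044 with the mean of its probe sets and 0.39 with the probe set of the largest SD, and double against single mated was 0.12 with the latter, because its probe sets disagree. For mated against virgin, the initiation factors called numbered 7, and 11 with cyclic loess (9 higher, 2 lower) or with each array's trend on gene span removed. The 4 cytosolic synthetases became 10 with cyclic loess, 2 with arrays centred on their median and 2 at an adjusted p under 0.01. The 9 mitochondrial synthetases became 5 with the span trend removed and 5 at 0.01. For single mated against virgin, the 2 initiation factors became 4 among probe sets above the median level, 1 with the replicate block and 1 at 0.01. The 1 cytosolic synthetase became 0 with the replicate block, centring or 0.01, 2 with the span trend removed, a level of 5 or more, or a trended robust variance, 3 with cyclic loess, levels above the median or only the groups compared, and 4 with array weights. The 0 mitochondrial synthetases became 5 with centring, 4 with array weights, 3 with levels above the median or only the groups compared, and 1 with the span trend removed, a level of 5 or more, or the mean of a gene's probe sets. Lower calls over all probe sets went from 970 to 1926 with centring and to 1712 with array weights. For double mated against virgin, the 13 initiation factors became 8 at 0.01, and the 4 cytosolic synthetases 10 with cyclic loess, 8 with the span trend removed, and 2 with centring or at 0.01. Between double and single mated females, the 3 initiation factors became 0 with the replicate block, only the groups compared or 0.01, and the 0 mitochondrial synthetases became 5 with array weights. With array weights the lower calls over all probe sets went from 326 to 988. The cause of these shifts was not tested, beyond the stricter threshold.

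Leaving out each array in turn gave these ranges, in the order initiation factors, cytosolic and mitochondrial synthetases: 5 to 9, 3 to 5 and 5 to 11 for mated against virgin; 1 to 3, 0 to 3 and 0 to 5 for single mated against virgin; 9 to 13, 3 to 5 and 8 to 10 for double mated against virgin; and 0 to 3, 0 to 0 and 0 to 4 for double against single mated. Initiation factors called after 1 mating numbered 1 without virgin replicate 3 or 4 or single mated replicate 2 or 4. Those called between double and single mated females numbered 0 without single mated replicate 1 or 2 or double mated replicate 1, and 1 without single mated replicate 4 or double mated replicate 2 or 3. The labels do not say whether the replicate numbers pair the samples. Arrays of the same number correlated at -0.26 to 0.14 in their deviations from group means, 1 of 12 pairs over 0.1, against -0.16 to 0.20 for 36 pairs of different numbers. These correlations are over all probe sets and cannot settle whether a shared batch moved part of the genes. A name pattern anchored at the start of the symbol left out GluProRS, alpha-PheRS and beta-PheRS, with 3 of 15 cytosolic enzymes higher for mated against virgin, and a fit of only the groups compared is the same fit for mated against virgin. No measure of background was used, so whether the 9 genes with a mean level under 6 lie above it was not tested.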
